A study of Mus musculus with 24 samples.

Results

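The genes described here are 40 mouse genes of glucose use and the response to low oxygen, taken as a fixed list of names out of 35519 genes in the deposited tables. All 40 names matched a gene, and all 40 passed the filter on low counts in every fit below, so no gene of the list is missing from any count. By role they comprise 2 glucose transporters, 9 enzymes of upper glycolysis, 2 enzymes that set the activity of phosphofructokinase, 5 enzymes of lower glycolysis, 3 genes that decide the fate of pyruvate, and 19 genes outside the pathway that are known as targets or parts of the oxygen response.

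The study sequenced RNA from anterior prostate lobes and from prostate organoids, which are epithelial structures grown in Matrigel from dissociated lobes of 3-month-old mice. Each came in 3 genotypes, named HET and KO for Brca1 and wild type (WT). Tissue had 2 libraries per genotype, and organoids had 3 libraries per genotype and condition, either without dihydrotestosterone (DHT, the active androgen; "minus DHT") or with it ("plus DHT"), 24 libraries in all. All organoids grew in a medium with EGF, Noggin, R-Spondin, A83-01, Y27632, N-acetylcysteine and B27, so the culture conditions other than DHT are shared by every organoid group and absent from every tissue group. The labels give neither the deleted part of Brca1, the promoter behind any recombinase, the age of the tissue donors nor the length of the withdrawal. They call the libraries biological replicates without tying any to an animal or a culture. The p-values therefore set each difference against the spread between these libraries, which is estimated over all groups of a fit.

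Cells sense oxygen through prolyl hydroxylases, which mark the HIF alpha proteins for destruction as long as oxygen is present. When oxygen falls, HIF1A or its relative EPAS1 accumulates, pairs with ARNT and switches on genes for glucose uptake, glycolysis, blood vessel growth, pH control and mitophagy. Because this control acts on the protein, the mRNA levels of Hif1a and Epas1 do not by themselves measure the activity of the pathway. The normal prostate epithelium secretes citrate, and androgen as well as oxygen is known to act on its sugar metabolism.

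Libraries held 11965815 to 58445041 estimated reads. Organoid replicates of 1 group had correlations of log2 CPM of 0.952 to 0.989, and the 2 tissue libraries of a genotype had correlations of 0.875 to 0.967. The first WT plus DHT organoid library was the shallowest and had 28.1% of its reads in the single gene Lars2, and the first HET minus DHT and first KO minus DHT libraries had 9.43% and 10.01% of reads in mitochondrial genes, against 1.597 to 5.39% in the others. Tissue libraries HET 1 and WT 2 carried summed levels of 39090 and 156504 CPM for 6 markers of seminal vesicle, the gland next to the anterior prostate, against 2.59 to 10.7 CPM in the other 4 tissue libraries. Brca1 RNA averaged 19.4 ± 1.29 CPM in HET minus DHT organoids, 11.9 ± 1.40 in KO minus DHT and 13.5 ± 1.63 in WT minus DHT organoids, and 17.6 ± 1.86 CPM in HET plus DHT, 11.4 ± 1.2 in KO plus DHT and 14.3 ± 0.627 in WT plus DHT organoids (SD, n = 3 each). Since the deleted part is not given, this gene-wide level does not check the genotype labels.

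Promoters are shown for 6 genes to let the sequence be read beside the values: Ero1l, Car9, Adm and Egln3 had the largest differences between tissue and organoids among genes with a promoter entry, and Adm, Ankrd37 and Slc2a1 passed the test in more than 1 comparison of organoid genotypes. Each line gives the 250 bases before the gene's start, 5′ to 3′ on the gene's own strand, from RefSeq on GRCm38.p6. Capitals mark ACGTG and GCGTG, the core of the hypoxia response element that HIF binds, or their reverse complements CACGT and CACGC. These letters can overlap, and ACGTG also forms part of the E-box CACGTG.
Ero1l: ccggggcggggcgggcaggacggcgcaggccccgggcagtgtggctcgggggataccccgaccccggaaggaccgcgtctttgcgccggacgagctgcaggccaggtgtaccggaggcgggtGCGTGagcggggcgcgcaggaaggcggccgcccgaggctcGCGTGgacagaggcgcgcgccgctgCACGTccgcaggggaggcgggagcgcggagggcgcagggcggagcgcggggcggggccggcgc
Car9: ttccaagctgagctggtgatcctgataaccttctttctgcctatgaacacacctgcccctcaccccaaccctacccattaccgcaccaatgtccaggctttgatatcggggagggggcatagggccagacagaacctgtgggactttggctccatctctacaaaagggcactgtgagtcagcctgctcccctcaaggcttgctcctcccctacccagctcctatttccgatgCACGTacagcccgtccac
Adm: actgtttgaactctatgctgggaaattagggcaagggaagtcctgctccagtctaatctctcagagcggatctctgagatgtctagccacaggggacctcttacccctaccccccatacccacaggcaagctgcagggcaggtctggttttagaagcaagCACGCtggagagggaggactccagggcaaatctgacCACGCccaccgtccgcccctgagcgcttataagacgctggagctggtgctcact
Egln3: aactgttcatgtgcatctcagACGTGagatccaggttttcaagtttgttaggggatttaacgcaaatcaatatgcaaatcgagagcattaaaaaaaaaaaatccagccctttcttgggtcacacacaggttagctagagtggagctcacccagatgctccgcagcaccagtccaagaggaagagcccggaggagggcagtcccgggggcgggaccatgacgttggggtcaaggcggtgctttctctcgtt
Ankrd37: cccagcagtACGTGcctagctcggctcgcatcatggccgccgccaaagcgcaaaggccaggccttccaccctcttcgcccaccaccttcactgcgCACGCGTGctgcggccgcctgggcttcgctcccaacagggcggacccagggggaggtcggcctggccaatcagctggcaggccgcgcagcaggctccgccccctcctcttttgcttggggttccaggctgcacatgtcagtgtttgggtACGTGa
Slc2a1: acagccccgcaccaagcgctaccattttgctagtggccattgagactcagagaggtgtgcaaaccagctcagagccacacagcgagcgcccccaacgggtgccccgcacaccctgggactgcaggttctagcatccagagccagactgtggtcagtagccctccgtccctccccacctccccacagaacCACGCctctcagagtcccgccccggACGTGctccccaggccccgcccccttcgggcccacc
The windows lie at chr14:45318573-45318822 on the minus strand for Ero1l (Ero1a in RefSeq), chr4:43506776-43507025 on the plus strand for Car9, chr7:110627407-110627656 on the plus strand for Adm, chr12:54203875-54204124 on the minus strand for Egln3, chr8:45999851-46000100 on the minus strand for Ankrd37 and chr4:119108495-119108744 on the plus strand for Slc2a1. The core occurred 3 times in the Ero1l window, 4 times in that of Ankrd37, 2 times each in those of Adm and Slc2a1 and once each in those of Car9 and Egln3. In Car9 it lay near the end of the window that adjoins the gene, and in Egln3 near the far end. Of the 35 listed genes with an entry, 32 (91.4%) held at least 1 core in some window, as did 41.5% of all 27025 genes with an entry. The core contains a CG pair, and the 51 windows of listed genes had a median of 14 CG pairs against 6 in all 32851 windows. Counted by window, 76.5% of those of listed genes held a core and 38.6% of all windows did. Of windows with at least 14 CG pairs among genes tested here, 68.1% did. Their median was 21 CG pairs, so they are not matched in CG content to the windows of listed genes. A match of letters is a description of the sequence, not a binding site. Ndrg1, Plod2, Epas1, Bnip3l and Slc2a3 have no window shown or counted.

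Tissue was compared with plus DHT organoids, both of them exposed to androgen, to show how far the hypoxia and glycolysis genes differ between the gland and its cultured epithelium. Of the 40 genes, 35 were lower in tissue and 3 were higher at an adjusted p under 0.05 (edgeR, quasi-likelihood F-test, Benjamini-Hochberg over 17626 genes). Among all genes tested, 33.4% were called lower, 42.1% higher and 75.4% in either direction, so a call as such was common here. The median log2 fold change of the 40 genes was −1.91, beside 0.19 over all genes. All 6 tissue libraries lay below all 9 organoid libraries for 33 listed genes, where 21.4% of all genes behaved so. In bulk RNA, fewer cells of a type and less RNA per cell cannot be told apart.

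**Figure D1:**
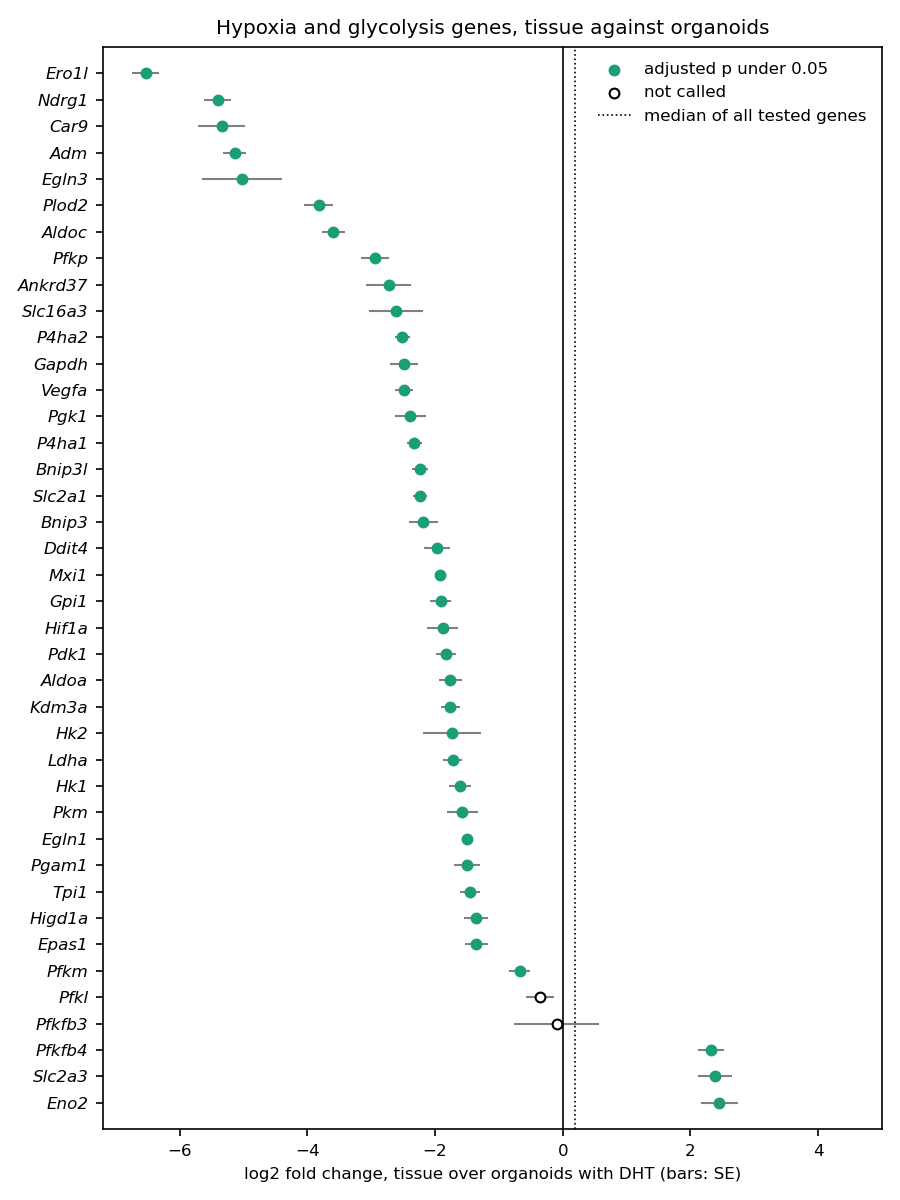
Log2 fold change of each of the 40 genes in tissue (n = 6) over organoids plus DHT (n = 9), with bars of 1 SE; filled points passed the test at an adjusted p of 0.05, open points did not, and the dotted line is the median of all tested genes at 0.19. The points run from −6.53 for Ero1l to 2.45 for Eno2, with 3 genes at the right of 0.

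The largest difference belonged to Ero1l, the endoplasmic reticulum oxidase that makes disulfide bonds in secreted proteins. Its level was 70.7 and 55.0 CPM in HET tissue, 66.3 and 46.5 in KO tissue and 88.9 and 49.2 in WT tissue, against a lowest, median and highest of 4977, 5561 and 7618 CPM in plus DHT organoids. Organoid values are given in this way, as the lowest, median and highest of 9, also for the genes that follow. The groups did not overlap, and the log2 fold change was −6.53 (SE 0.212, adjusted p = 1.9e-10), an organoid level 92.2-fold that of tissue. On the deposited TPM scale, which is per length and so allows genes to be compared, Ero1l was the third most abundant of the 40 genes in organoids, at a median of 2480 TPM after Gapdh and Aldoa. In tissue it stood 25th, at 27.2 TPM.

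Targets that are regarded as markers of hypoxia followed. Ndrg1, a stress-induced regulator of growth and differentiation that androgen also induces in human prostate cells, had 44.1 and 22.4 CPM in HET tissue, 31.4 and 18.5 in KO tissue and 29.4 and 22.5 in WT tissue, against 934, 1176 and 1598 CPM as lowest, median and highest in organoids. Car9, a membrane carbonic anhydrase of pH control, had 2.74 and 0.888 CPM in HET tissue and 1.16 and 1.06 in KO tissue. Car9 had 0.411 and 0 CPM in WT tissue, against 24.1, 33.4 and 34.7 CPM in organoids. Adm, which encodes the vasodilator peptide adrenomedullin, had 2.40 and 2.35 CPM in HET tissue, 2.24 and 2.06 in KO tissue and 1.96 and 2.84 in WT tissue, against 52.8, 73.2 and 154 CPM in organoids. In none of the 3 genes did a tissue library reach an organoid library. The log2 fold changes were −5.40 for Ndrg1 (SE 0.212, adjusted p = 6.8e-10), −5.34 for Car9 (SE 0.366, adjusted p = 6.8e-08) and −5.14 for Adm (SE 0.187, adjusted p = 4.0e-10) in edgeR's test.

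**Figure D2:**
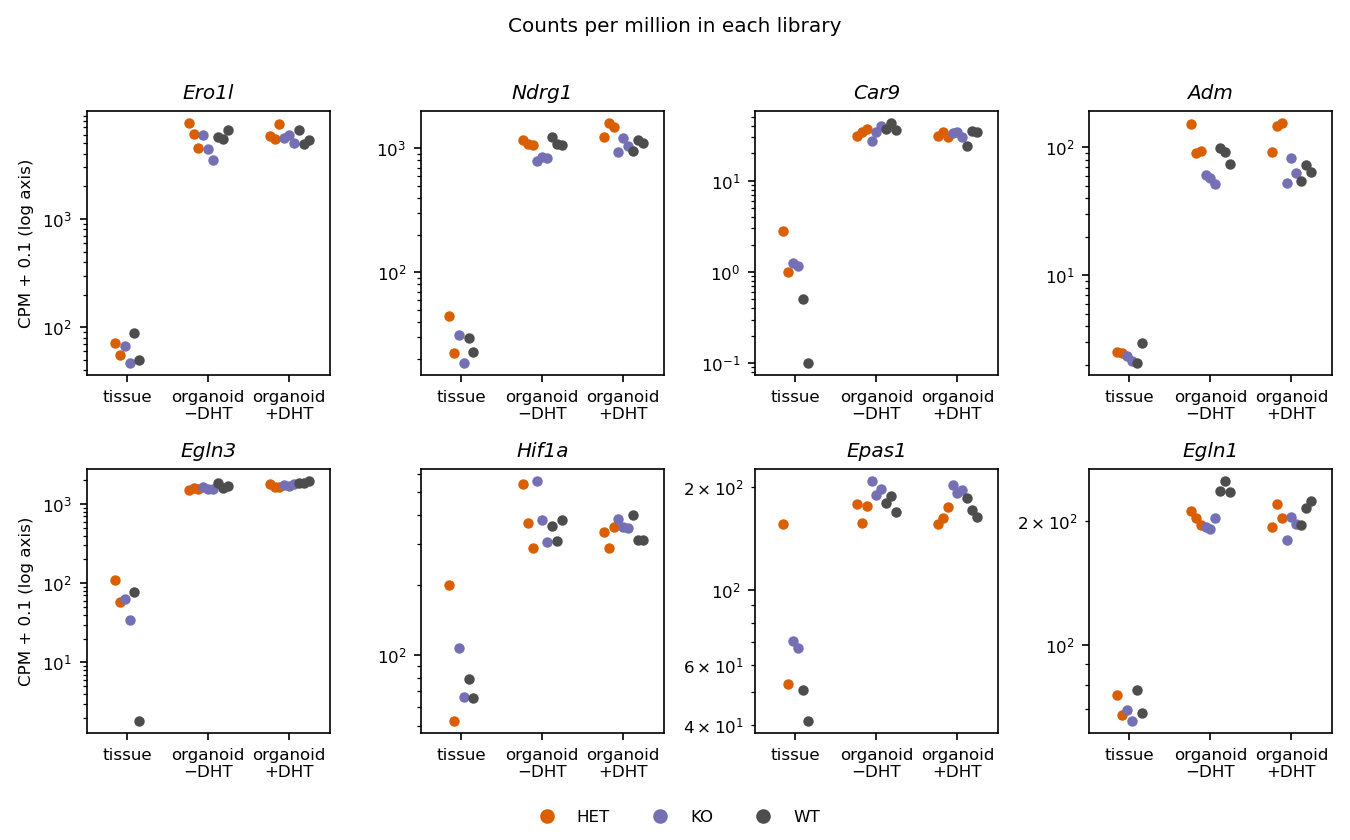
Level of 8 genes in each library as CPM plus 0.1 on a log axis, with tissue at the left, organoids minus DHT in the middle and organoids plus DHT at the right, coloured by genotype. Tissue lies below both organoid conditions for every gene drawn except Epas1, where the first HET tissue library reaches the organoid range.

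The oxygen sensors differed from each other in size. Egln3, a prolyl hydroxylase that is itself a strong HIF target, had 108 and 58.4 CPM in HET tissue, 63.0 and 34.6 in KO tissue and 76.7 and 1.71 in WT tissue, against 1638, 1769 and 1950 CPM in organoids (log2 −5.02, SE 0.632, adjusted p = 1.6e-05). Egln1, the main hydroxylase in normal oxygen, had 75.6 and 67.8 CPM in HET tissue, 69.6 and 65.4 in KO tissue and 77.7 and 68.2 in WT tissue, against 180, 202.3 and 222 CPM in organoids (log2 −1.51, SE 0.078, adjusted p = 6.8e-09). Neither gene's groups overlapped, and the second WT tissue library stood far below the other tissue libraries for Egln3 alone of the pair.

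Both HIF alpha subunits were lower in tissue. Hif1a had 199 and 52.2 CPM in HET tissue, 108 and 65.8 in KO tissue and 79.1 and 65.7 in WT tissue, against 287, 350 and 399 CPM in organoids (log2 −1.88, SE 0.242, adjusted p = 1.7e-05). Epas1, the subunit typical of endothelium and of some epithelia, had 156 and 52.7 CPM in HET tissue, 70.6 and 67.5 in KO tissue and 50.5 and 41 in WT tissue, against 156, 175 and 203 CPM in organoids (log2 −1.35, SE 0.182, adjusted p = 2.4e-05). The first HET tissue library was the highest tissue library for both and overlapped the organoids for Epas1. Hif1a made up a median of 63.0% of the TPM of the pair in tissue and 69.7% in organoids.

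Among secreted and collagen-modifying products, every gene fell. Vegfa, the main vessel growth factor, had a log2 fold change of −2.49 (SE 0.143), and the collagen lysyl hydroxylase Plod2 reached −3.82 (SE 0.229). The collagen prolyl hydroxylase subunits P4ha1 and P4ha2 stood at −2.32 (SE 0.116, adjusted p = 4.8e-09) and −2.51 (SE 0.116, adjusted p = 2.7e-09). The mitophagy receptors Bnip3 and Bnip3l, at −2.18 and −2.24, and the mTORC1 inhibitor Ddit4, at −1.97, formed a middle group. Mxi1, a MYC antagonist, had −1.91 (SE 0.089, adjusted p = 2.8e-09), the histone demethylase Kdm3a −1.76, and Higd1a, a small mitochondrial protein, −1.36. Ankrd37, an ankyrin-repeat protein used as a hypoxia marker, had −2.72, with 0.765 CPM in the second WT tissue library against 3.14 to 9.66 CPM in the other tissue libraries.

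Enzymes at most steps of glycolysis were lower in tissue. Of 9 upper enzymes 8 were lower in tissue, of 5 lower enzymes 4 were, and all 3 genes of pyruvate fate were: Ldha, the lactate dehydrogenase, at −1.72, the lactate exporter Slc16a3 at −2.61 and the pyruvate dehydrogenase kinase Pdk1 at −1.83. Gapdh had 1246 and 1936 CPM in HET tissue, 1567 and 1645 in KO tissue and 1530 and 587 in WT tissue, against 5739, 7936 and 10937 CPM in organoids. The log2 fold change of Gapdh, the triose phosphate dehydrogenase often used as a loading control, was −2.49 (SE 0.223). Slc2a1, the widespread glucose transporter, had 55.2 and 69.2 CPM in HET tissue, 54.7 and 51.2 in KO tissue and 52.0 and 55.9 in WT tissue, against 207, 262 and 349 CPM in organoids (log2 −2.24, SE 0.106, adjusted p = 3.1e-09). The tissue values were the tighter of the 2 sets, and the sets did not overlap.

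Isozymes of the same step moved by different amounts. The platelet-type phosphofructokinase Pfkp fell by 2.95 on the log2 scale and the muscle type Pfkm by 0.67, while the liver type Pfkl at −0.35 (SE 0.219, adjusted p = 0.16) did not pass the test. Per length, Pfkl made up a median of 67.2% of phosphofructokinase TPM in tissue and 36.3% in organoids, and Pfkp 19.6% in tissue and 54.0% in organoids. Aldoc, the brain-type aldolase, fell by 3.59 (SE 0.181, adjusted p = 5.3e-09) and Aldoa fell by 1.76, so that Aldoc held 1.84% of the TPM of the 2 in tissue and 5.32% in organoids. Hk1 and Hk2, the hexokinases that trap glucose in the cell, fell by 1.61 (SE 0.171) and 1.73 (SE 0.460). The Hk2 value varied more among tissue libraries. Hk2 made up 8.24 to 58.7% of the TPM of the 2 in tissue and 37.1 to 42.8% in plus DHT organoids.

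The 3 genes that were higher in tissue were of low abundance. Slc2a3, the high-affinity transporter of neurons and leukocytes, had 2.74 and 2.0 CPM in HET tissue, 1.91 and 2.63 in KO tissue and 2.01 and 3.83 in WT tissue, against 0.274, 0.456 and 1.06 CPM in organoids (log2 2.38, SE 0.269). Eno2, the neuronal enolase, had 0.783 and 1.49 CPM in HET tissue, 1.30 and 3.19 in KO tissue and 1.45 and 1.79 in WT tissue, against 0.171, 0.267 and 0.467 CPM in organoids (log2 2.45, SE 0.285). Pfkfb4, a testis-rich enzyme that makes and breaks the activator of phosphofructokinase, had 17.9 and 20.4 CPM in HET tissue, 21.5 and 33.3 in KO tissue and 18 and 48.2 in WT tissue, against 3.17, 5.09 and 8.06 CPM in organoids (log2 2.32, SE 0.205). Each gene's tissue libraries lay wholly above its organoid libraries, a pattern that 23.8% of all genes had.

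Pfkfb3, the relative of Pfkfb4 that strongly favours glycolysis, was the gene most split among tissue libraries. It had 339 and 19.8 CPM in HET tissue, 24.9 and 13.8 in KO tissue and 17.6 and 1073 in WT tissue, against 78.6, 118 and 216 CPM in organoids. The 2 high tissue libraries were the 2 that carried seminal vesicle RNA, and the other 4 lay below every organoid library. Over all 6 tissue libraries the log2 fold change was −0.09 (SE 0.667, adjusted p = 0.91 in edgeR). Without those 2 libraries it was −2.80 (SE 0.225, adjusted p = 3.5e-07), and without WT 2 alone −1.75 (adjusted p = 0.011). The part of seminal vesicle in the high values was not tested.

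**Figure D3:**
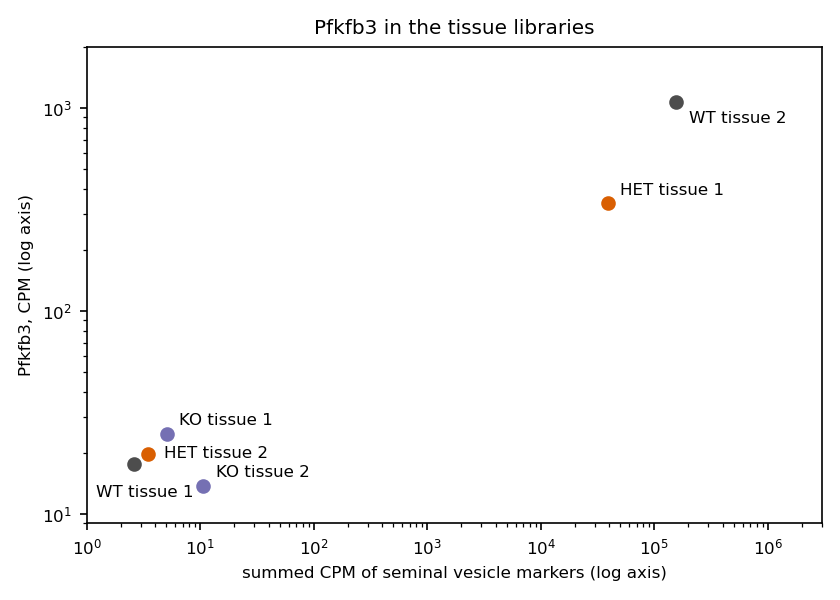
Pfkfb3 in CPM (log axis) against the summed CPM of 6 seminal vesicle markers (log axis) in each of the 6 tissue libraries, coloured by genotype. WT tissue 2 and HET tissue 1 stand at 1073 and 339 CPM of Pfkfb3, and the other 4 lie between 13.8 and 24.9.

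The second WT tissue library also had the lowest level of the 6 for 25 of the 40 genes, among them Hk2 at 7.62 CPM against 124 to 217 in the other tissue libraries. The count of genes called between tissue and organoids was 39 without tissue WT 2 and HET 1, and 38 or 39 when any 1 library was left out. Within single genotypes 36 genes were called in HET, 37 in KO and 37 in WT, where 56%, 57.9% and 55.2% of all genes were, and 33 of those in HET, 34 in KO and 34 in WT were lower. The cell makeup of the 2 kinds of sample moved with the result. Summed markers of smooth muscle ranged over 213 to 2869 CPM in tissue and 0.137 to 0.595 CPM in plus DHT organoids. Those of fibroblasts ranged over 217 to 422 CPM in tissue and 9.45 to 40.1 CPM in organoids, those of endothelium over 51.9 to 64.6 CPM in tissue and 3.22 to 13.6 CPM in organoids, and those of leukocytes over 8.69 to 53.9 CPM in tissue and 0.067 to 0.467 CPM in organoids. Basal epithelial markers ranged over 145 to 1658 CPM in tissue and 2761 to 3870 CPM in organoids. Markers of luminal epithelium ranged over 5546 to 16328 CPM in tissue and 4689 to 5738 CPM in organoids, and in plus DHT organoids Des, Cdh5, Adgre1 and the 2 globin genes were at 0. The part of cell makeup in the differences was not tested.

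Other genes of the same pathways are to be read against the 75.4% of all genes called, 42.1% higher and 33.4% lower in tissue. Of 40 tested hypoxia targets outside the list, 8 were higher and 27 lower in tissue (median log2 −1.19), with Ccng2, an atypical cyclin, at −1.76 (SE 0.089) in edgeR's test. Of 18 genes of HIF control 6 were higher and 8 lower (median −0.30), among them Arnt, the HIF partner subunit, at −1.53, the cullin Cul2 of the VHL complex at −1.51 and the deubiquitinase Usp20 at 1.64. Of 25 other genes of sugar metabolism 11 were higher and 8 lower (median 0.48), with the monocarboxylate transporter Slc16a1 at −3.03 and its relative Slc16a7 at 2.98.

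Between tissue genotypes none of the 40 genes passed the test in any of 3 comparisons, and neither did any of the 16753 genes tested (0% of all genes). No listed gene had an unadjusted p under 0.05 in edgeR either, where 455 of all genes did for HET over WT, 320 for KO over WT and 97 for KO over HET, and DESeq2 also called 0 listed genes. With 2 libraries a group, the spread was wide. The lowest p among the 40 for HET over WT belonged to Epas1 (log2 1.15, SE 0.482) and Car9 (log2 3.02, SE 1.36), and for KO over WT to Pfkfb3 (log2 −4.84, SE 2.09) and Car9 (log2 2.37, SE 1.33), whose WT libraries include the value of 0. Without WT tissue 2, the library high in Pfkfb3 and in seminal vesicle RNA, Pfkfb3 stood at 0.16 (SE 1.44) for KO over WT and at 3.32 (SE 1.71) for HET over WT. Pfkfb3 (log2 −3.14, SE 1.93) and Eno2 (log2 0.99, SE 0.696) had the lowest p for KO over HET, and without HET tissue 1, the other such library, Pfkfb3 stood at −0.08 (SE 2.13). Gapdh, the listed gene of highest mean CPM in tissue, stood at 0.59 (SE 0.577) for HET over WT, 0.61 (SE 0.577) for KO over WT and 0.02 (SE 0.575) for KO over HET. Pkm, the pyruvate kinase, stood at 0.71 (SE 0.676) for HET over WT, 0.70 (SE 0.675) for KO over WT and −0.01 (SE 0.672) for KO over HET.

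Organoid genotypes were compared within each DHT condition to see whether the Brca1 genotype label went with a change of the hypoxia and glycolysis genes. In plus DHT organoids, 4 of the 40 genes were higher in HET than in WT and none was lower, where 7.45% of all 15427 genes were called and 4.03% were called higher. Pfkfb3 had 157, 216 and 203 CPM in HET plus DHT organoids, against 78.6, 118 and 99.6 CPM in WT plus DHT organoids (log2 0.97, SE 0.186, adjusted p = 0.0041). Adm had 92.4, 147 and 154 CPM in HET, against 54.2, 73.2 and 63.7 CPM in WT (log2 1.05, SE 0.232, adjusted p = 0.010). For both genes all 3 HET libraries lay above all 3 WT libraries. Uncalled genes were also without overlap, such as Tpi1 and Vegfa above WT and Eno2 and Egln3 below it. Overlap is read from the values that were tested, so here and below it adds no support to a call. The share of all genes without overlap was not counted for the organoid comparisons, so separation does not set the called genes apart.

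Ankrd37 had 40.5, 50.3 and 41.5 CPM in HET plus DHT organoids, against 22.5, 32.3 and 36.5 CPM in WT plus DHT organoids (log2 0.53, SE 0.146, adjusted p = 0.036 in edgeR). With protein-coding transcripts only, it stood at 0.39 and was not called (adjusted p = 0.63 in edgeR). Ndrg1 had 1242, 1598 and 1495 CPM in HET, against 955, 1176 and 1110 CPM in WT (log2 0.43, SE 0.119, adjusted p = 0.040). Neither gene's groups overlapped, and the first WT library, the shallow one rich in Lars2 reads, was the lowest of the WT libraries for all 4 genes called. That library had the lowest value of the 9 plus DHT libraries for 19 of the 40 genes, and HET plus DHT library 2 had the highest for 23. Without WT plus DHT 1, or without HET plus DHT 3, only 1 gene was called, and 2 were called without HET plus DHT 2, WT plus DHT 2, KO plus DHT 3, WT minus DHT 1 or WT minus DHT 3, the last 3 of which are not in the groups compared. A fit of only the 2 groups called 2 genes, and one with the mitochondrial share as a covariate 13. Unless a share is named, counts from alternative fits, here and below, stand without the share of all genes called in that fit. Pfkfb3 and Adm were the 2 called without the 3 organoid libraries that stand apart in mitochondrial or Lars2 reads.

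**Figure D4:**
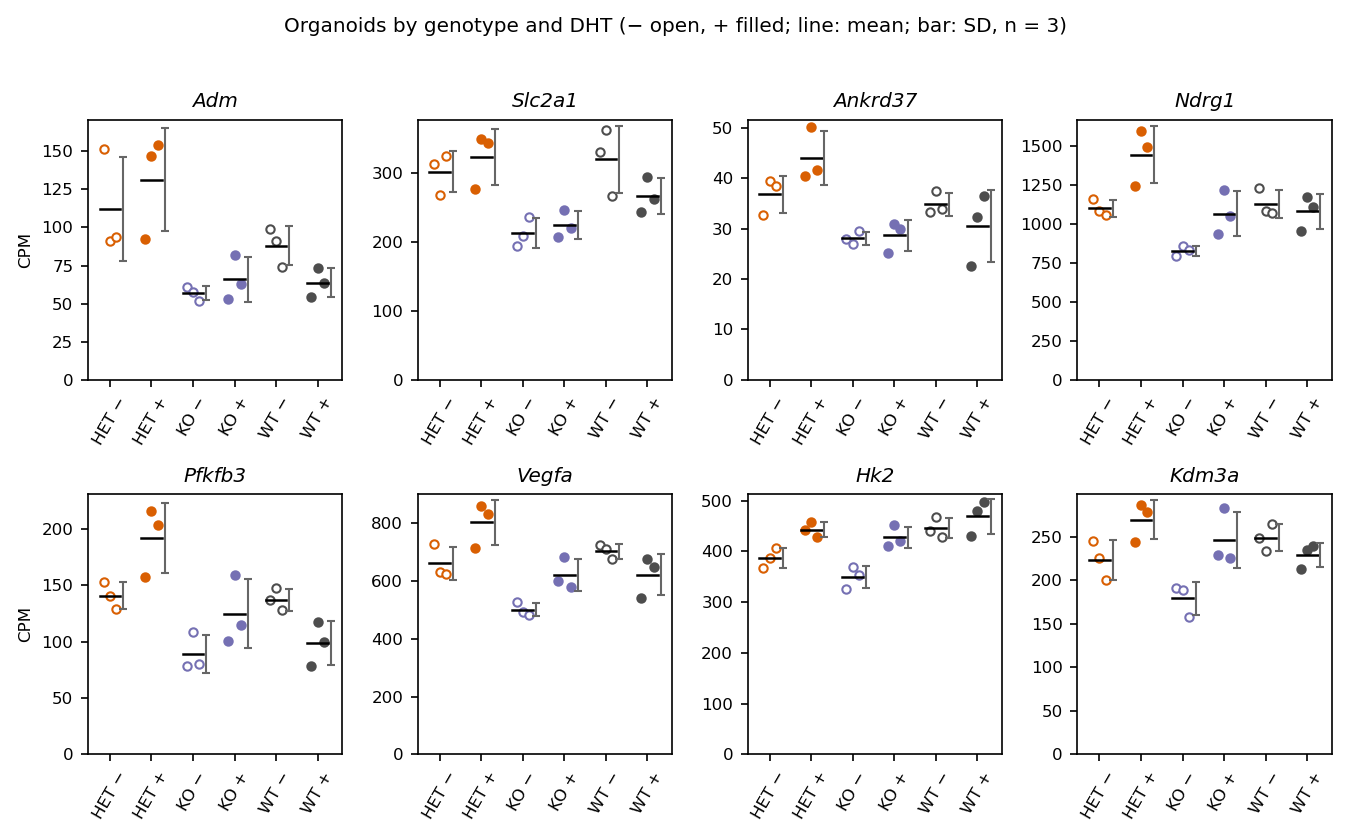
CPM in each organoid library of the 8 genes called in any comparison of genotypes, by genotype and DHT (open, minus DHT; filled, plus DHT), with the mean and a bar of 1 SD (n = 3). HET plus DHT has the highest mean for Adm, Slc2a1, Ankrd37, Ndrg1, Pfkfb3, Vegfa and Kdm3a, and KO minus DHT the lowest for each gene drawn.

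None of the 40 genes was called between KO and WT plus DHT organoids, where 4.12% of all genes were, and DESeq2 also called 0. In edgeR 1 listed gene had an unadjusted p under 0.05, a count not set beside that over all genes. That gene was Pfkfb4 (log2 −0.80, SE 0.341, adjusted p = 0.31), and Plod2 came next (log2 0.40, SE 0.193, adjusted p = 0.40). Gapdh and Ero1l, the 2 listed genes of highest mean CPM in organoids, stood at −0.02 (SE 0.151) and −0.04 (SE 0.215). A fit of only the 2 groups called 3 listed genes, 1 higher and 2 lower in KO.

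Against HET plus DHT organoids, 3 genes were lower in KO and none was higher, where 3.53% of all genes were called and 1.75% were called lower. Adm had 52.8, 82.0 and 63.2 CPM in KO plus DHT, below the 92.4, 147 and 154 CPM of HET plus DHT (log2 −1.0, SE 0.231, adjusted p = 0.024). Ankrd37 had 25.2, 30.9 and 29.9 CPM in KO, against 40.5, 50.3 and 41.5 CPM in HET (log2 −0.63, SE 0.145, adjusted p = 0.024). Slc2a1 had 207, 246 and 220 CPM in KO, against 276, 349 and 343 CPM in HET (log2 −0.53, SE 0.132, adjusted p = 0.035). With protein-coding transcripts only, neither Ankrd37 (log2 −0.76, adjusted p = 0.31 in edgeR) nor Slc2a1 (log2 −0.47, adjusted p = 0.51) was called. All 3 genes were without overlap between the groups. Uncalled genes such as Pkm and Hk1 also lay wholly below HET, and Plod2 and Epas1 wholly above it. No call was left without HET plus DHT 2, HET plus DHT 3, KO plus DHT 1 or KO plus DHT 3, and 5 genes were called without KO plus DHT 2. DESeq2 called 8 genes and a fit of only the 2 groups 7. This comparison shares its HET libraries with the one above, so the 2 are not independent.

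In minus DHT organoids, 5 genes were lower in KO than in WT and none was higher, where 4.73% of all genes were called and 1.93% were called lower. Slc2a1 had 194, 209 and 236 CPM in KO minus DHT organoids, against 330, 362 and 266 CPM in WT minus DHT organoids (log2 −0.59, SE 0.132, adjusted p = 0.017). Vegfa had 527, 492.8 and 484 CPM in KO, against 723, 709 and 675 CPM in WT (log2 −0.49, SE 0.110, adjusted p = 0.017). Hk2 had 325, 369 and 353 CPM in KO, against 440, 467 and 429 CPM in WT (log2 −0.35, SE 0.080, adjusted p = 0.018). These transport, vessel and hexokinase genes did not overlap between the groups. With length offsets Hk2 stood at −0.17 (adjusted p = 0.61 in edgeR) and Vegfa at −0.43 (adjusted p = 0.14), so neither was called. With protein-coding transcripts only, Slc2a1 stood at −0.75 and was not called (adjusted p = 0.18 in edgeR).

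Kdm3a had 191, 189 and 158 CPM in KO minus DHT organoids, against 249, 234 and 265 CPM in WT minus DHT organoids (log2 −0.47, SE 0.118, adjusted p = 0.030 in edgeR). Ndrg1 had 792, 857 and 832 CPM in KO, against 1229, 1081 and 1072 CPM in WT (log2 −0.45, SE 0.119, adjusted p = 0.043). Here too the groups did not overlap. The first KO minus DHT library, with the high mitochondrial share, was the lowest of the 9 minus DHT libraries for 23 of the 40 genes. Called genes numbered 2 without KO minus DHT 1 or WT minus DHT 3, 1 without KO minus DHT 2, and 0 without WT minus DHT 1 or WT minus DHT 2. They numbered 3 without KO minus DHT 3, HET minus DHT 2, HET plus DHT 3, KO plus DHT 1 or WT plus DHT 3, and the same number, Vegfa, Hk2 and Kdm3a, without the 3 libraries that stand apart. A fit of only the 2 groups called 0 genes, and DESeq2 called 9.

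No listed gene was called between HET and WT minus DHT organoids, where 7.82% of all genes were called. In edgeR 4 listed genes had an unadjusted p under 0.05, a count not set beside that over all genes, and DESeq2 called 2. The lowest p belonged to Egln1 (log2 −0.23, SE 0.082, adjusted p = 0.11) and Pfkm (log2 −0.43, SE 0.157, adjusted p = 0.13), and Gapdh and Ero1l stood at 0.07 (SE 0.151) and 0.04 (SE 0.215).

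Between KO and HET minus DHT organoids, 1 gene was called lower and none higher, where 2.88% of all genes were called and 1.56% were called lower. Adm had 60.8, 57.9 and 51.7 CPM in KO minus DHT organoids, against 151, 90.8 and 93.6 CPM in HET minus DHT organoids (log2 −0.99, SE 0.231, adjusted p = 0.031). The groups did not overlap, and 1 HET library stood above the other 2. No gene was called without HET minus DHT 1, any 1 of the KO minus DHT libraries or KO plus DHT 3, and 2 were called without WT minus DHT 2 or WT minus DHT 3. A fit of only the 2 groups without a block called 0 genes, and DESeq2 called 5. Among the organoid groups compared, these 2 are the only pair with every same-number correlation of deviations over 0.1 (0.231 to 0.691). Lower positive correlations were found for KO minus and KO plus DHT (0.028 to 0.298) and for KO plus and WT plus DHT (0.054 to 0.207). A fit of KO and HET minus DHT alone with the replicate number as a block was not planned beforehand. The labels do not say that equal numbers belong together, and the block rests on correlations of these same values. In this fit 3 listed genes were higher and 21 lower in KO, where 9.54% of all genes were called higher and 10.6% lower. In that paired fit the lowest p belonged to Plod2 (log2 0.47, SE 0.048, adjusted p = 9.9e-05), Ero1l (log2 −0.41, SE 0.042, adjusted p = 0.00011), Vegfa (log2 −0.40, SE 0.043, adjusted p = 0.00014) and Slc2a1 (log2 −0.50, SE 0.058, adjusted p = 0.00025).

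Hypoxia targets outside the list were also tested. Of 38, 8 were higher and none lower in HET than in WT plus DHT organoids (7.45% of all genes called), among them Hilpda, a lipid droplet protein (log2 1.06, SE 0.181), and Sap30, a histone deacetylase cofactor (log2 0.66, SE 0.135), while KO over WT plus DHT had 2 higher and 0 lower (4.12% of all genes called) and KO over HET plus DHT 1 higher and 5 lower (3.53%). In minus DHT organoids 4 were higher and 1 lower in HET than in WT (7.82% of all genes called), 2 higher and 4 lower in KO than in WT (4.73%), and 2 higher and 3 lower in KO than in HET (2.88%). Tmem45a, a membrane protein induced by hypoxia, stood out from these lists, with 15.9, 18.1 and 20.1 CPM in KO plus DHT organoids against 2.45, 2.28 and 2.60 CPM in WT plus DHT organoids (log2 2.88, SE 0.203). In HET plus DHT organoids it had 16.3, 14.5 and 15.3 CPM (log2 over WT 2.66, SE 0.203), so both mutant groups lay above WT without overlap. None of the 17 HIF control genes or 22 other sugar genes was called between genotypes plus DHT in edgeR, and minus DHT the sugar genes Eno1, an enolase (log2 −0.75 in HET over WT), and Slc2a12, a glucose transporter (log2 −0.61 in KO over WT), fell.

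Withdrawal of DHT was tested within each genotype. No listed gene was called in HET, KO or WT organoids, where 0.713% of all genes were called in HET, 0.551% in KO and 1.3% in WT organoids. Listed genes at an unadjusted p under 0.05 in edgeR numbered 7 in HET, 5 in KO and 3 in WT organoids. The same count over all genes is not set beside them, so they are not read as a response of the list. DESeq2 called 0 listed genes in HET, 2 in KO and 0 in WT organoids. The lowest p-values belonged in HET organoids to Ndrg1 (log2 −0.39, SE 0.119, adjusted p = 0.24) and Higd1a (log2 −0.57, SE 0.189, adjusted p = 0.31), in KO organoids to Kdm3a (log2 −0.45, SE 0.118, adjusted p = 0.15) and Hk2 (log2 −0.29, SE 0.080, adjusted p = 0.18), and in WT organoids to Pfkfb3 (log2 0.48, SE 0.185, adjusted p = 0.41) and Egln1 (log2 0.19, SE 0.082, adjusted p = 0.53). Gapdh stood at −0.26 (SE 0.151) in HET, −0.19 (SE 0.151) in KO and 0.02 (SE 0.151) in WT organoids. Ero1l stood at −0.05 (SE 0.215) in HET, −0.25 (SE 0.215) in KO and 0.08 (SE 0.215) in WT organoids.

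**Figure D5:**
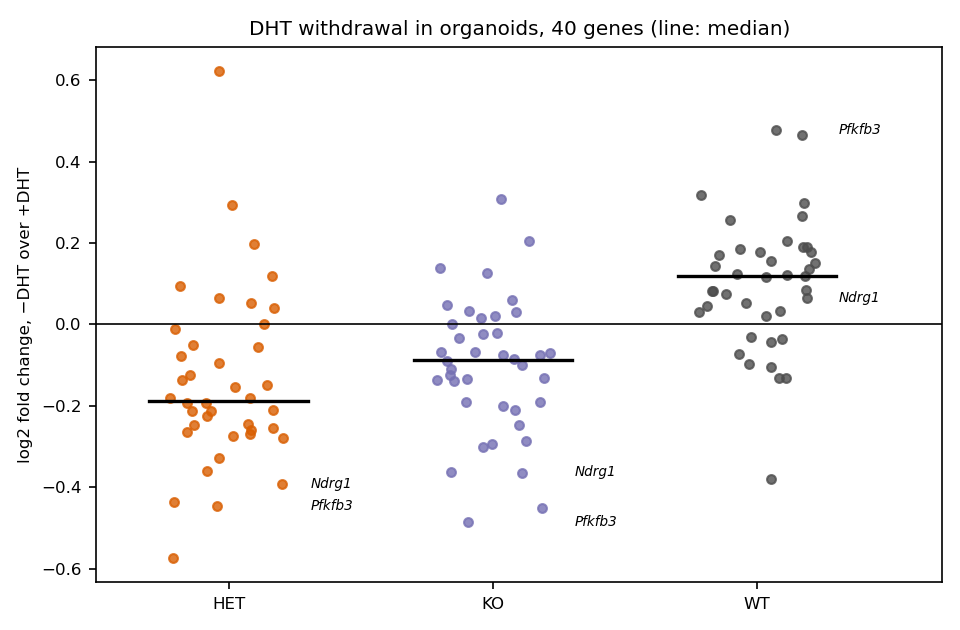
Log2 fold change of each of the 40 genes in minus DHT over plus DHT organoids, by genotype, with a line at the median; Pfkfb3 and Ndrg1 are named. The medians are −0.19 in HET, −0.09 in KO and 0.12 in WT organoids, and no single gene passed the test.

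Most of the 40 withdrawal values were below 0 in HET and KO organoids and above 0 in WT organoids. Values above 0 numbered 8 in HET organoids (median −0.19), 11 in KO organoids (median −0.09) and 31 in WT organoids (median 0.12), beside medians over all genes of 0.02 in HET, 0.03 in KO and 0.01 in WT organoids. Tested gene by gene in edgeR, no listed gene and no gene at all was called for a withdrawal difference between genotypes (0% called). Listed genes at an unadjusted p under 0.05 numbered 7 for HET minus WT, 5 for KO minus WT and 0 for KO minus HET. Again the same count over all genes is not set beside them. DESeq2 called 0 listed genes. The gene furthest apart was Pfkfb3, with a difference of −0.92 (SE 0.261) for HET minus WT and −0.96 (SE 0.261) for KO minus WT. Its levels were 153, 140 and 129 CPM in HET minus DHT against 157, 216 and 203 CPM in HET plus DHT, 78.2, 108 and 80.5 CPM in KO minus DHT against 100, 159 and 115 CPM in KO plus DHT, and 137, 147 and 128 CPM in WT minus DHT against 78.6, 118 and 99.6 CPM in WT plus DHT. Its minus DHT libraries all lay below the plus DHT ones in HET organoids, overlapped them in KO organoids and all lay above them in WT organoids.

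All 3 libraries that stand apart enter these contrasts, 1 in each genotype. Without them the medians were −0.14 in HET, −0.03 in KO and 0.06 in WT organoids, and of the 40 values 7 were above 0 in HET, 17 in KO and 23 in WT organoids. The HET plus DHT and WT plus DHT libraries are also those of the genotype comparisons, so the patterns are not independent. Outside the list, withdrawal called Stc1, a secreted glycoprotein (log2 1.88, SE 0.332), and Hif3a, a HIF alpha relative (log2 −0.47, SE 0.108), in WT organoids and Slc16a1 (log2 0.34, SE 0.074) in HET organoids.

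Pyruvate kinase can be read by transcript form. The Pkm transcripts differ in 1 of 2 exclusive exons, at chr9:59675029-59675195 on the plus strand of GRCm38 for the M1 form and chr9:59675568-59675734 for the M2 form typical of growing cells. The M1 transcript made up 5.53 to 16.6% of the TPM of the pair in tissue and 6.05 to 18.4% in plus DHT organoids, so the ranges overlapped and M2 prevailed in both. In minus DHT organoids the range was 6.07 to 32.9%, and the 2 highest shares, 32.9% and 30.2%, were those of HET minus DHT 1 and KO minus DHT 1, the libraries with high mitochondrial shares. The transcripts also differ at their ends, so the share is not a measure of that exon alone. Reads assigned to processed copies named after a listed gene were few. They made up at most 4.05% of the gene and its copies for Pgk1. For the others with such copies the highest share was 0.12%, in Bnip3l. Copies under other names were not counted.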

How the data were processed

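RNA-seq of 24 mouse libraries was quantified by the authors. The submitters' processing notes list Salmon 0.13.1 and name hg38, although the deposited transcripts carry mouse Ensembl identifiers. The deposited files hold, per transcript, an estimated count that need not be whole, a TPM value and an effective length, per the file headers. Transcripts were mapped to genes with GENCODE M21 (922 of 116945 had no gene, 0.227 to 0.327% of reads), estimated counts were summed per gene and rounded, and genes were filtered by filterByExpr. Depth was 11965815 to 58445041 estimated reads per library. TMM scaling and edgeR 4.0.16 (quasi-likelihood, robust) in R 4.3.3 gave log2 fold changes with Benjamini-Hochberg adjustment over all genes tested: 15427 in 18 organoid libraries (12 residual degrees of freedom), 16753 in 6 tissue libraries (3) and 17626 in the tissue and plus DHT libraries (9). Each fit had 1 mean per group, and the last averaged the difference between tissue and organoids over the 3 genotypes. CPM, scaled over all 24 libraries, give levels within a gene, and the deposited TPM give shares and ranks between genes. Alternatives were DESeq2 1.42.0, limma 3.58.1, other filters and scalings, length offsets, the replicate block, smaller fits and left-out libraries, including libraries left out after their values were seen. Fits were tested on simulated data. Among the organoid groups compared, only KO and HET minus DHT had every same-number correlation of deviations over 0.1 (0.231 to 0.691).

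The 40 genes and the other gene lists were chosen with earlier results of these data known, so their counts are descriptions and no test over a list was made. Genes named with full values are up to 8 called with the lowest p in a comparison or, where none was called, the 2 of highest mean CPM and the 2 of lowest p, besides the HIF subunits, the hydroxylases, the 5 largest differences between tissue and organoids and genes called in more than 1 organoid comparison. The isozymes, Pfkfb3 in tissue, and the genes higher in tissue were picked after their values were seen.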

Additional observations from a re-analysis of the deposited data

Results flagged for a closer look

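In 80 sets of libraries (each of the 40 genes in the 6 tissue and in the 9 plus DHT organoid libraries), 8 had 1 library that stood further from its neighbours than Dixon's test allows at 95%; chance flags about 1 in 20 such groups, and each set mixes 3 genotypes. In tissue, WT 2 was the lowest for Hk1 (57.2 CPM, next 149) and the highest for Pfkm (41.8 CPM, next 26.0) and Pfkfb3 (1073 CPM, next 339). HET tissue 1 was the highest for Epas1 (156 CPM, next 70.6) and HET tissue 2 for Slc2a1 (69.2 CPM, next 55.9). Among plus DHT organoids, HET 2 was the highest for Slc2a3 (1.06 CPM, next 0.470) and Higd1a (175 CPM, next 127), and WT 1 was the lowest for Car9 (24.1 CPM, next 30.2).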

How the results depend on the processing

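Between tissue and organoids 38 or 39 of the 40 genes were called in every alternative, including minus DHT organoids and limma voom, and leaving out 1 library gave 38 to 39; for tissue genotypes 0 were called in each, also with crossed pairing of HET and WT tissue. Among organoids no listed gene called reversed, and counts moved as follows. DESeq2 called 2 genes for withdrawal in KO (0 in the main test), 8 for KO over HET plus DHT (3), 2 for HET over WT minus DHT (0), 9 for KO over WT minus DHT (5), 5 for KO over HET minus DHT (1) and 70 calls of other pathway genes (37). With the mitochondrial share as a covariate these were 3, 12, 3, 10, 9 and 119, and 13 for HET over WT plus DHT (4). In fits of only the groups compared, HET over WT plus DHT had 2, KO over WT plus DHT 3 (0 in the main test), KO over HET plus DHT 7, KO over WT minus DHT 0 and KO over HET minus DHT 0. HET over WT plus DHT had 2 with no filter, with length offsets and without the 3 libraries that stand apart. KO over WT minus DHT had 3 with no filter, 2 with protein-coding transcripts and 3 without those libraries; KO over HET plus DHT had 1 with protein-coding transcripts and 7 without those libraries; KO over HET minus DHT had 2 with DESeq2's size factors, a stricter filter or length offsets and 0 without those libraries. Leaving out 1 library gave 1 to 5 for HET over WT plus DHT, 0 to 5 for KO over HET plus DHT, 0 to 7 for KO over WT minus DHT, 0 to 2 for KO over HET minus DHT and 20 to 39 for other pathway genes. These counts stand without the share of all genes called in each alternative, so a change may not be particular to the list. The causes were not tested.

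With the replicate number as a block in the fit of all organoids, 5 genes were called for KO over HET plus DHT, 1 for HET over WT minus DHT, 8 for KO over WT minus DHT and 3 for KO over HET minus DHT; in the paired fit of only KO and HET minus DHT there were 24, and no other count moved. No other compared organoid groups had every same-number correlation over 0.1; KO minus DHT and WT plus DHT, which were not compared, had 0.122 to 0.314, and tissue, with 2 libraries a group, had 0.408 for HET and KO and 0.109 for KO and WT. The tissue comparisons rest on 2 libraries a group and the organoid ones on 3; each listed gene passed the filter on low counts, and the part of depth was not tested.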
